A study of Mus musculus with 12 samples.

Results

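Collagens are the proteins whose 3 chains wind into the rope-like helices of the extracellular matrix. The collagen gene family was taken here as every gene of the deposited count table whose mouse symbol names a collagen chain, which gave 44 of 21959 genes. Of these, 32 had at least 60 read counts summed over the 12 libraries and were treated as measured, and 12 had fewer. The chains were grouped by class into 11 fibrillar, 6 basement membrane (type IV), 6 type VI and 9 FACIT chains (collagens that sit on the surface of fibrils) and 12 others. Fibrillar collagens, mainly types I and III in the heart, form the tensile fibres laid down by fibroblasts. Type IV forms the sheet around cardiomyocytes and capillaries, and type VI forms beaded filaments between that sheet and the fibres.

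RNA was measured in heart ventricles of 12 male mice, all 7 weeks old and fed chow. Of these, 6 carried a cardiac-specific knockout of Vps13c (Vps13c-cKO) and 6 were wild type (WT). Vps13c encodes a bridge-like protein that moves lipids between organelle membranes, and the comparison asks how ventricular expression differs when it is depleted. The labels do not give the driver or cell type of the knockout, nor whether WT mice carried a driver, so effects of a driver and of the knockout cannot be told apart.

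Libraries held 12484523 to 15562942 counts, and levels are given as CPM, the read count scaled to library size with TMM factors. Vps13c was at 54.6 to 68.5 CPM in WT and at 16.3 to 20.3 CPM in Vps13c-cKO, with -1.77 ± 0.06 as its log2 fold change (SE; adjusted p = 4.47e-14). The cardiomyocyte markers were present in every library, with Myh6 at 26372 ± 1488 CPM (SD, n = 6) in WT. The share of mitochondrially encoded counts was 29.2 to 31.4% in WT and 30.6 to 32.2% in Vps13c-cKO. Some libraries stood apart within their group. WT mouse 1 had the highest WT level for 15 of the 29 tested collagens, and WT mouse 2 had the lowest for 13. Vps13c-cKO mouse 3 had the highest Vps13c-cKO level for 10 of the 29, and Vps13c-cKO mouse 6 had the lowest for 15.

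The WT ventricle was dominated by few collagen chains. On the scale of CPM per kilobase of mRNA, which allows levels of different genes to be compared, the order in WT began with Col4a1 at 75.2, Col4a2 at 54.8 and Col3a1 at 39.0. Col6a1 (21.6), Col15a1 (21.4), Col6a2 (21.0) and Col1a2 (20.7) followed closely together, and Col1a1 was at 12.0. Per kilobase, type IV chains held 44.6% ± 1.84 (SD, n = 6) of the summed collagen level in WT, fibrillar chains 28.3% ± 0.911, type VI chains 15.6% ± 0.857, the other chains 9.87% ± 0.263 and FACITs 1.62% ± 0.145. These levels depend on the transcript length assumed. With the length of all annotated exons in place of the main transcript, Col1a2 stood at 8.90 and Col1a1 at 10.8, which turns their order. On that scale type IV chains held 52.0% ± 1.76 and fibrillar chains 22.7% ± 0.806 of the sum in WT.

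**Figure D1:**
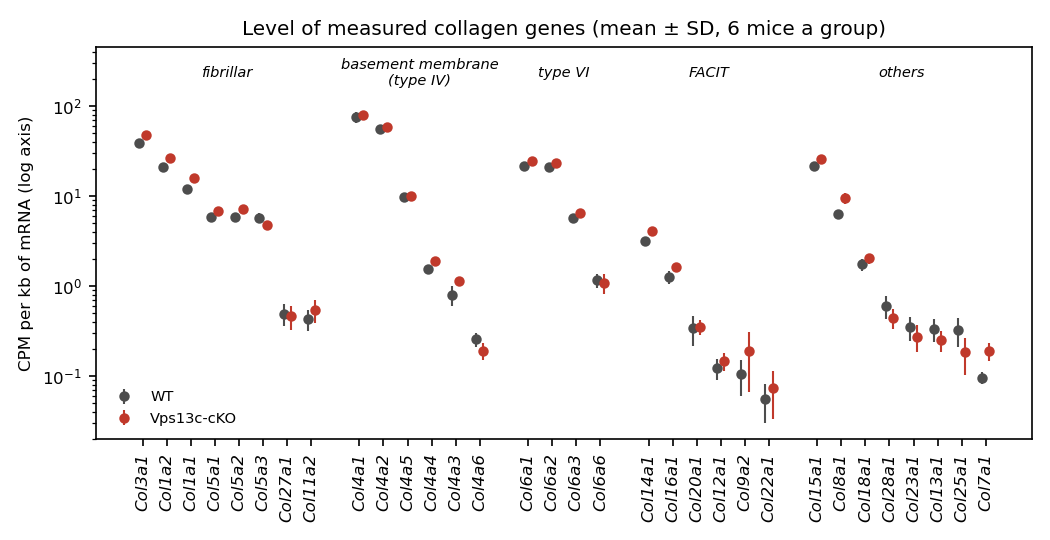
Level of the 32 measured collagen genes in CPM per kilobase of mRNA (log axis), grouped by class. Points are means and bars are SD over 6 mice, grey for WT and red for Vps13c-cKO; Col4a1 and Col4a2 were the highest, and Col22a1 (0.0553 in WT) was the lowest.

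The 12 chains below 60 summed counts were Col2a1, Col11a1 and Col24a1 (fibrillar), Col6a4 and Col6a5 (type VI), Col9a1, Col9a3 and Col19a1 (FACIT), and Col8a2, Col10a1, Col17a1 and Col26a1. Col6a4 had 0 counts in the 12 libraries together, which allows a level of up to 0.0182 CPM. Nearest below the limit were Col8a2 with 57 and Col9a3 with 55 counts, and nearest above it were Col9a2 with 71 and Col22a1 with 95 counts. Col2a1, the main collagen of cartilage, had 14 counts in all.

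Collagen transcripts were more often higher than lower in the knockout ventricles, by modest amounts. A count filter passed 29 of the 44 chains for testing, and of these 14 were higher and 1 was lower in the knockout mice (adjusted p below 0.05). Over all 12384 genes tested, 10.7% passed this threshold, 5.65% higher and 5.10% lower. The median log2 fold change was 0.22 over the 29 tested collagens and 0.00 over all tested genes. Because the tissue is bulk RNA, more cells of a type and more RNA per cell cannot be told apart. Of the 15 calls, 12 held in every alternative fit that gave a value, and the exceptions were Col5a1, Col5a3 and Col16a1.

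**Figure D2:**
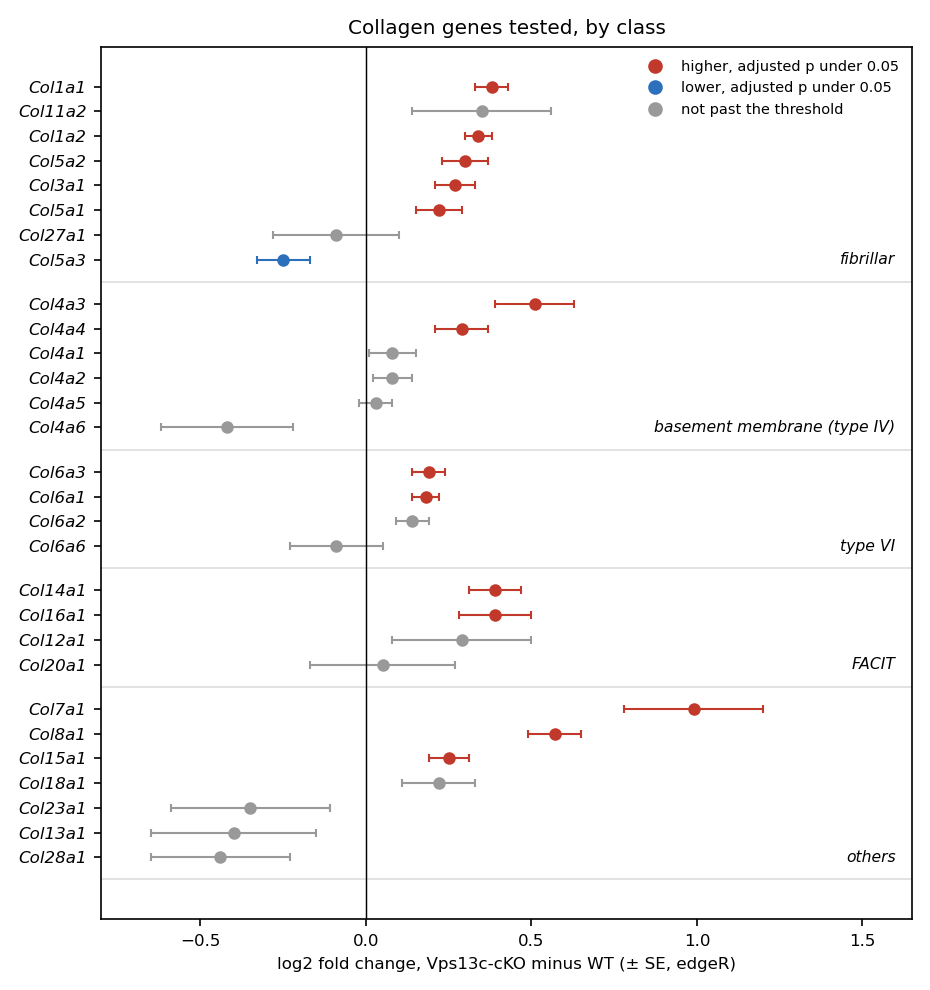
Log2 fold change (Vps13c-cKO minus WT) of the 29 tested collagen genes by class, with SE derived from the F statistic of edgeR. Red points were higher (14 genes), the blue point was lower (Col5a3), and grey points did not pass an adjusted p of 0.05.

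The main fibrillar chains of types I, III and V rose, apart from Col5a3, which fell. Of 8 tested fibrillar genes, 5 were higher and 1 was lower (5.65% and 5.1% over all tested genes). The median log2 fold change of the 8 was 0.29. The collagen I chains Col1a1 and Col1a2 make the main load-bearing fibre. Col1a1 (chromosome 11) was at 62.4, 73.9 and 76.0 CPM in WT (lowest, median and highest mouse) and at 84.7, 92.3 and 101 CPM in Vps13c-cKO. Every knockout mouse lay above every WT mouse. Its log2 fold change was 0.38 ± 0.05 (SE; adjusted p = 4.74e-05), or 1.30-fold on the means. Col1a2 (chromosome 6) was at 104, 110.2 and 117 CPM in WT and at 129.9, 136 and 154 CPM in Vps13c-cKO, again with no overlap (log2 fold change 0.34 ± 0.04, adjusted p = 3.42e-05).

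Col3a1 encodes the only chain of collagen III, which forms thinner fibres together with type I. Its WT mice were at 182, 220.3 and 238 CPM and its Vps13c-cKO mice at 239, 256 and 309.6 CPM, so that the groups just met without overlapping. The log2 fold change of Col3a1 was 0.27 ± 0.06 (SE; adjusted p = 0.0059). Vps13c-cKO mouse 3 held the highest value, and without it the log2 fold change was 0.22 (adjusted p = 0.0145). Groups did not overlap, with Vps13c-cKO higher, for 4 of the 29 tested collagens (Col1a1, Col1a2, Col3a1 and Col7a1) and for 2.75% of all tested genes. With Vps13c-cKO lower this held for 0 of the 29 and for 2.18% of all tested genes (4.93% in either direction).

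Type V chains, which join type I in mixed fibrils and set their width, went in different directions. Col5a2 was at 34.2, 38.6 and 43.8 CPM in WT and 40.3, 47.4 and 52.6 CPM in Vps13c-cKO (log2 fold change 0.30 ± 0.07 SE, adjusted p = 0.00422), with 5 of 6 knockout mice above the WT range. Col5a1 was at 40.6, 49.0 and 54.5 CPM and at 52.6, 55.7 and 66.1 CPM (0.22 ± 0.07, adjusted p = 0.0396), with 3 knockout mice above the WT range. The third chain, Col5a3, was lower. Its WT mice were at 29.5, 34.1 and 42.7 CPM and its knockout mice at 25.8, 28.9 and 34.1 CPM, with overlap between the groups (-0.25 ± 0.08, adjusted p = 0.0445). These last calls lie close to the threshold. The call of Col5a1 was lost in 8 of 12 fits that leave out a mouse and that of Col5a3 in 9 of 12, with adjusted p of up to 0.108 and 0.106, while their directions held.

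The remaining fibrillar chains were scarce. Col11a2 was at 1.68 to 3.06 CPM in WT and 1.54 to 3.84 CPM in Vps13c-cKO (log2 fold change 0.35 ± 0.21 SE, adjusted p = 0.318). Col27a1 was at 2.30 to 5.18 and 2.31 to 5.40 CPM (-0.09 ± 0.19, adjusted p = 0.847). Neither differed beyond the spread between mice.

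**Figure D3:**
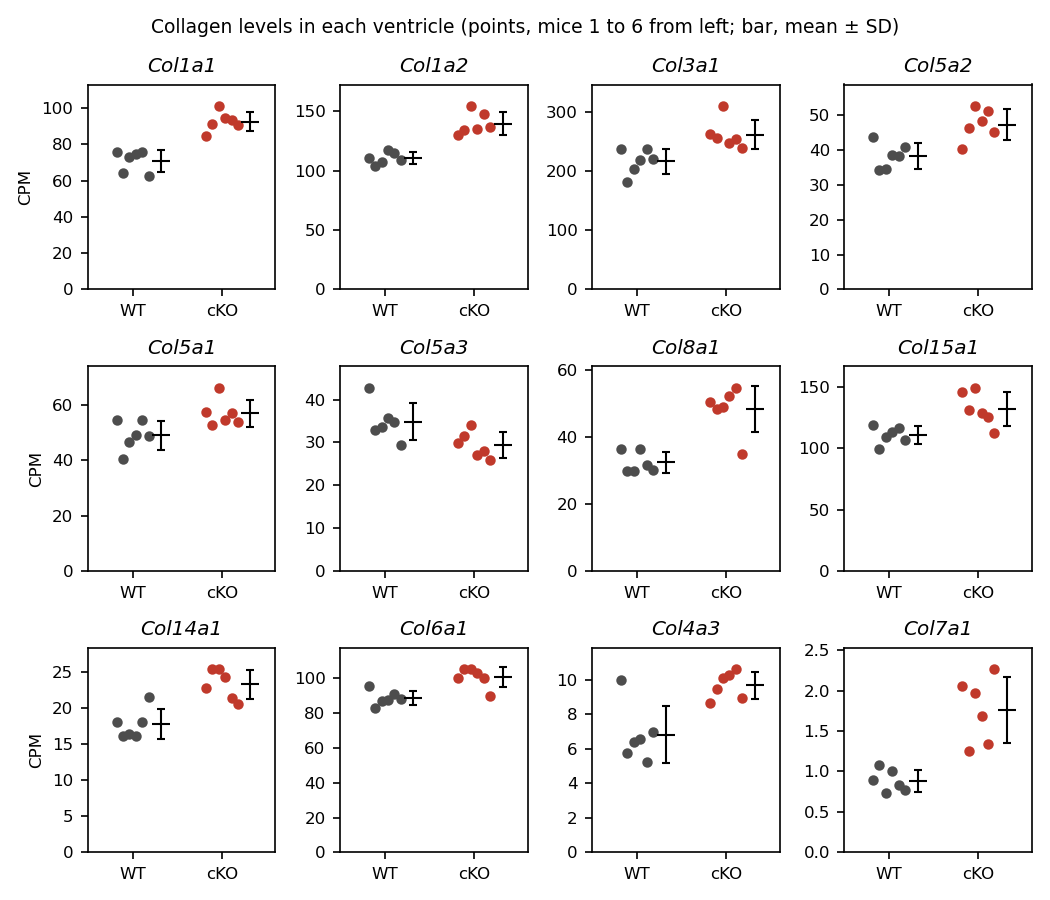
CPM of 12 collagen genes in each ventricle (y axes start at 0), mice 1 to 6 from left to right within a group, with mean ± SD beside the points. Col1a1, Col1a2, Col3a1 and Col7a1 show no overlap between WT (grey) and Vps13c-cKO (red), while Col5a3 is the gene that was lower.

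For 3 collagen genes that were higher, the bases just before the RefSeq transcription start are shown, as examples of the motifs counted over all promoters (build GRCm38.p6; the counts were made on GRCm39, so positions serve only to place the sequence). Each stretch of 120 bases ends at the base before the start and is read along the gene's own strand. Capitals mark a match, on either strand, to the CCAAT motif, to the TATA motif TATAAA or to the GC-box motif GGGCGG. The Col1a2 stretch is at chr6:4505498-4505617 (+), that of Col3a1 at chr1:45311418-45311537 (+), and that of Col8a1 at chr16:57754738-57754857 (-).
Col1a2: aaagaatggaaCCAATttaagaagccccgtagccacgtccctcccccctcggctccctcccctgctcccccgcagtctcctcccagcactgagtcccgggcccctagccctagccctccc
Col3a1: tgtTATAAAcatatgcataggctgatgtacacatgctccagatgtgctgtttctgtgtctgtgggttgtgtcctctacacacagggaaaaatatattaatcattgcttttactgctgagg
Col8a1: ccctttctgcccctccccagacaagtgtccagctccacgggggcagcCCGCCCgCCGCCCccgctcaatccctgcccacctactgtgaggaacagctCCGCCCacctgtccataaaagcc
Col1a2 holds CCAAT, 109 to 105 bases before the start, and Col3a1 holds TATAAA at the far end of its stretch, 117 to 112 bases before the start. Col8a1 holds 3 copies of GGGCGG, read as CCGCCC on this strand. Farther out, between 120 and 250 bases before the start, Col1a2 holds 2 copies of GGGCGG and Col8a1 holds 1 more, so both carry that motif.

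RefSeq gave promoter windows for 35 of the 44 collagens, 38 windows in all. In the 250 bases before the start, GGGCGG on either strand, with overlaps between motifs allowed, occurred in 22 of the 38 collagen windows and in 32.7% of all 32851 windows. CCAAT occurred in 13 of 38 and in 33.8% of all windows, TATAAA in 5 of 38 and in 12.4%, and TGACTCA in 1 of 38 and in 4.46%. Among the 10 genes that were higher and had a window, GGGCGG was found in 5, CCAAT in 3, and TATAAA and TGACTCA in 1 each. These letters describe the windows and show nothing about binding.

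Type IV collagens showed a high and nearly level pair of chains beside a scarcer pair that rose. Of 6 tested chains, 2 were higher and 0 lower (5.65% and 5.1% over all tested genes). The median log2 fold change was 0.08. Col4a1 and Col4a2 form the common type IV trimer of vessels and muscle. Col4a1 was at 429, 487 and 629.9 CPM in WT and 470.5, 534 and 572 CPM in Vps13c-cKO, with the knockout mice inside the WT range. Its log2 fold change was 0.08 ± 0.07 (SE; 95% interval -0.05 to 0.22; adjusted p = 0.518). Col4a2 was at 324, 342 and 428 CPM in WT and at 344, 378 and 399 CPM in Vps13c-cKO (0.08 ± 0.06, interval -0.03 to 0.19, adjusted p = 0.434). WT mouse 1 was the highest of the 12 mice for both genes. Without it, Col4a2 passed the threshold at 0.14 (adjusted p = 0.0432) and Col4a1 stood at 0.16 (adjusted p = 0.0527).

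Col4a3 and Col4a4 are chains of the trimer best known from the kidney filter. Col4a3 was at 5.22, 6.49 and 10 CPM in WT and at 8.66, 9.77 and 10.6 CPM in Vps13c-cKO. The highest WT value was again that of mouse 1, and the other 5 WT mice lay at or below 6.97 CPM, under every knockout mouse. The log2 fold change of Col4a3 was 0.51 ± 0.12 (SE; adjusted p = 0.00813), and 0.65 without WT mouse 1 (adjusted p = 0.000152). Col4a4 was at 13.9, 15.4 and 18.8 CPM and at 16.8, 19.3 and 20.6 CPM (0.29 ± 0.08, adjusted p = 0.0165). Both genes lie on chromosome 1, head to head. The X-linked pair did not pass. Col4a5 was at 58.0 to 67.3 CPM in WT and 61.0 to 70.1 CPM in Vps13c-cKO (0.03 ± 0.05, adjusted p = 0.749), and Col4a6 at 1.19 to 2.15 and 0.88 to 1.68 CPM (-0.42 ± 0.20, adjusted p = 0.203). Whether the difference from Col4a1 and Col4a2 to Col4a3 and Col4a4 exceeds the spread was not tested.

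Col4a1 and Col4a2 start back to back on opposite strands of chromosome 8, and in RefSeq their first bases overlap. The shared stretch, at chr8:11312805-11312826 in GRCm38.p6, is 22 bases long, is printed here on the strand of Col4a2, and its reverse complement begins Col4a1.
Col4a2: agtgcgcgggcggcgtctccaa
The levels of the pair correlated from mouse to mouse by Pearson's r in both groups, while Spearman's rho passed after adjustment only in Vps13c-cKO. A link between this and the shared start was not tested. Across the 6 WT mice Pearson's r of log2 CPM was 0.96 (exact permutation p = 0.00833, adjusted p = 0.0333) and Spearman's rho was 0.89 (exact permutation p = 0.0333, adjusted p = 0.133). Across the 6 Vps13c-cKO mice r was 0.91 (exact permutation p = 0.00139, adjusted p = 0.0111) and rho was 1.00 (exact permutation p = 0.00278, adjusted p = 0.0222). Without the 2 mice farthest from the Col4a1 median, r was 0.82 in WT and 0.99 in Vps13c-cKO.

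The same was asked of 3 other pairs, which makes 8 relations in the adjustment. For Col1a1 with Col1a2, r was 0.67 in WT (exact permutation p = 0.163, adjusted p = 0.26; rho 0.66, exact p = 0.175, adjusted p = 0.28) and 0.81 in Vps13c-cKO (exact permutation p = 0.0319, adjusted p = 0.0852; rho 0.71, exact p = 0.136, adjusted p = 0.272). Without the 2 mice farthest from the Col1a1 median, r was 0.69 and 0.17. Leaving them out narrows the range and few mice remain, so this cannot show what either relation rested on. For Col1a1 with Col3a1, r was 0.57 and 0.58 (exact permutation p = 0.211 and 0.269, adjusted p = 0.281 and 0.297), rho was 0.60 and 0.20 (exact p = 0.242 and 0.714, adjusted p = 0.322 and 0.714), and r without the 2 farthest mice was 0.98 and 0.24. For Col6a1 with Col6a2, r was 0.51 and 0.89 (exact permutation p = 0.297 and 0.0639, adjusted p = 0.297 and 0.128), rho was 0.83 and 0.49 (exact p = 0.0583 and 0.356, adjusted p = 0.156 and 0.406), and r without the 2 farthest mice was 0.89 and -0.58. None of these 3 pairs passed the threshold after adjustment in either group.

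**Figure D4:**
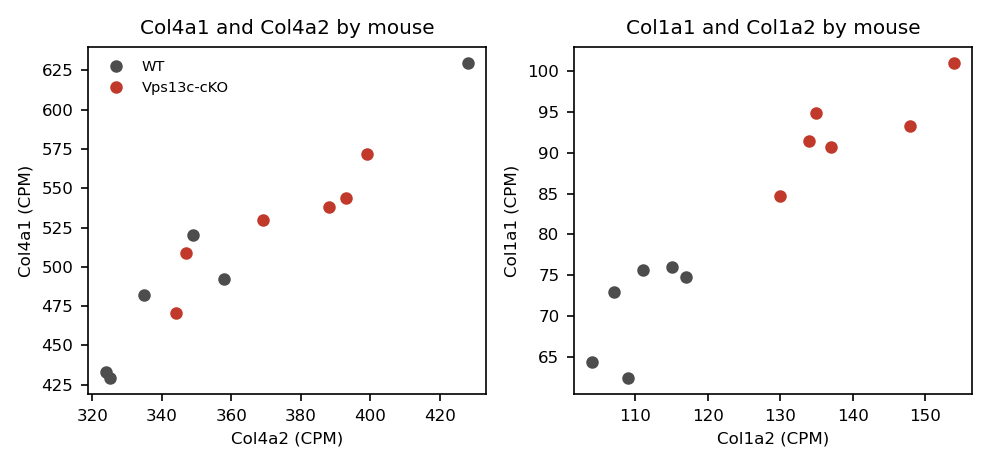
CPM of Col4a1 against Col4a2 (left) and of Col1a1 against Col1a2 (right) in the 12 mice, grey for WT and red for Vps13c-cKO. The groups overlap for Col4a1 and Col4a2, with WT mouse 1 at the upper right, and separate for Col1a1 and Col1a2; axes do not start at 0.

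Ratios of chain counts within a library did not differ detectably between groups. The ratio of Col1a1 to Col1a2 was 0.642 ± 0.0416 in WT and 0.665 ± 0.0263 in Vps13c-cKO (SD, n = 6 each; two-sided exact permutation p = 0.299, adjusted p = 0.398 over 4 ratios). That of Col3a1 to Col1a1 was 3.06 ± 0.281 and 2.83 ± 0.21 (exact permutation p = 0.123, adjusted p = 0.398). For Col4a1 to Col4a2 it was 1.41 ± 0.0718 and 1.41 ± 0.0384 (exact permutation p = 0.805, adjusted p = 0.805), and for Col6a1 to Col6a2 1.07 ± 0.0537 and 1.11 ± 0.0309 (exact permutation p = 0.199, adjusted p = 0.398). On the log2 scale the differences were 0.05, -0.11, 0.01 and 0.05. The smallest p that 6 against 6 mice can give is 0.00216.

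Type VI chains differed by small amounts. Of 4 tested chains 2 (Col6a1 and Col6a3) were higher and 0 lower (5.65% and 5.1% over all tested genes). The median log2 fold change was 0.16. Col6a1, Col6a2 and Col6a3 form the common type VI trimer. Col6a1 was at 82.8, 87.7 and 95.3 CPM in WT and 89.7, 102 and 105 CPM in Vps13c-cKO (0.18 ± 0.04 SE, adjusted p = 0.00901), and Col6a3 at 46.7, 50.1 and 55.2 and at 53.2, 57.4 and 64.6 CPM (0.19 ± 0.05, adjusted p = 0.0134). For each of them 5 of 6 knockout mice lay above the WT range. Col6a2 was at 78.2, 81.9 and 89.7 CPM and at 81.3, 92.4 and 96.2 CPM, just short of the threshold (0.14 ± 0.05, adjusted p = 0.0587). It passed in 4 of the alternative fits, among them the one without Vps13c-cKO mouse 6 (adjusted p = 0.0148). Col6a6, a chain related to Col6a3, was at 8.27 to 13.3 CPM in WT and 7.62 to 14.0 CPM in Vps13c-cKO (-0.09 ± 0.14, adjusted p = 0.755).

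Among FACITs, 2 of 4 tested chains were higher and 0 lower (5.65% and 5.1% over all tested genes). The median log2 fold change was 0.34. Col14a1, which binds the surface of type I fibrils, was at 16.1, 17.3 and 21.6 CPM in WT and at 20.6, 23.6 and 25.4 CPM in Vps13c-cKO (0.39 ± 0.08 SE, adjusted p = 0.00149), with 4 knockout mice above the WT range. Col16a1 was at 5.10, 6.65 and 8.14 CPM and at 7.20, 8.61 and 9.29 CPM (0.39 ± 0.11, adjusted p = 0.0228). Its call was lost in 4 of 12 fits that leave out a mouse (WT mouse 3 or 6, Vps13c-cKO mouse 1 or 3; adjusted p up to 0.0573). Col12a1 was at 1.01 to 2.00 CPM in WT and 1.13 to 2.14 CPM in Vps13c-cKO (0.29 ± 0.21, adjusted p = 0.451), and Col20a1 at 0.919 to 2.56 and 1.41 to 2.30 CPM (0.05 ± 0.22, adjusted p = 0.935). Col9a2 and Col22a1 were measured but did not pass the count filter. Col9a2 was at 0.144 to 0.518 CPM in WT and 0.0744 to 1.06 CPM in Vps13c-cKO, and Col22a1 at 0.144 to 0.763 and 0.367 to 1.34 CPM.

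Of the 7 other chains tested, 3 were higher and 0 lower (5.65% and 5.1% over all tested genes). The median log2 fold change was 0.22. Col8a1 encodes a short network-forming collagen of vessel walls. It was at 30.0, 31.0 and 36.4 CPM in WT and at 35.1, 49.7 and 54.7 CPM in Vps13c-cKO. Of the knockout mice, 5 lay at 48.4 CPM or above, and mouse 6 lay inside the WT range. The log2 fold change of Col8a1 was 0.57 ± 0.08 (SE; adjusted p = 7.96e-05), and 0.65 without that mouse (adjusted p = 4.47e-07). Col15a1, a collagen bound to basement membranes, was at 98.9, 111 and 119 CPM and at 112, 130.3 and 149 CPM (0.25 ± 0.06, adjusted p = 0.00666). Its relative Col18a1, the precursor of endostatin, was at 7.00, 8.02 and 10.6 CPM and at 7.97, 10.1 and 11.1 CPM (0.22 ± 0.11, adjusted p = 0.206).

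Col7a1, the anchoring fibril collagen of skin, had the largest log2 fold change among the tested collagens, from a very low level. It had 75 counts in the WT libraries together and 142 in the Vps13c-cKO libraries. Its WT mice were at 0.729, 0.858 and 1.08 CPM and its knockout mice at 1.25, 1.83 and 2.26 CPM, without overlap (0.99 ± 0.21 SE, adjusted p = 0.00356). The membrane-spanning collagens Col13a1 (0.700 to 1.48 and 0.480 to 1.03 CPM; -0.40 ± 0.25, adjusted p = 0.367) and Col23a1 (1.34 to 2.91 and 0.776 to 2.13 CPM; -0.35 ± 0.24, adjusted p = 0.405) did not pass. Nor did Col28a1, a collagen of peripheral nerve, at 1.82 to 3.85 CPM in WT and 1.13 to 2.38 CPM in Vps13c-cKO (-0.44 ± 0.21, adjusted p = 0.197). Col25a1 did not pass the count filter. It had 72 counts in WT and 39 in Vps13c-cKO (0.613 to 1.44 and 0.240 to 0.733 CPM).

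Summed over the family, collagen transcripts were at 1693 to 2174 CPM in WT and at 1941 to 2286 CPM in Vps13c-cKO, and the groups overlapped. By class, per kilobase, fibrillar chains made up 28.3% ± 0.911 (SD, n = 6) of the sum in WT and 30.2% ± 1.19 in Vps13c-cKO. Type IV chains made up 44.6% ± 1.84 and 41.9% ± 1.20, type VI chains 15.6% ± 0.857 and 15.3% ± 0.41, FACITs 1.62% ± 0.145 and 1.84% ± 0.124, and the others 9.87% ± 0.263 and 10.7% ± 0.718. The ranges of the 2 groups overlapped in every class. These shares are given as a description, with no test.

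Genes of collagen maturation did not move as a block with the collagens. Of 14 tested genes of prolyl and lysyl modification, 1 was higher and 1 lower (median log2 fold change -0.01). Over all tested genes, 5.65% were higher and 5.1% lower. P4hb, a subunit of prolyl hydroxylase and a general protein disulfide isomerase, rose from 195 ± 6.28 CPM to 254 ± 9.99 CPM (SD over 6 mice; 0.38 ± 0.04 SE, adjusted p = 2.87e-07). P3h4 fell by 0.38 ± 0.10 on the log2 scale (adjusted p = 0.0134). P3h2 had the largest log2 fold change on the list but fell just short of the threshold (0.61 ± 0.20, adjusted p = 0.0512). Its mean was 2.24 CPM in WT and 3.41 CPM in Vps13c-cKO. The catalytic subunits P4ha1 (-0.00 ± 0.06, adjusted p = 0.995) and P4ha2 (0.11 ± 0.06, adjusted p = 0.298) did not pass either. Without WT mouse 3 or Vps13c-cKO mouse 6, and with robust empirical Bayes, 2 genes of this list were higher. Of 10 genes of folding and export, 0 were higher and 1 was lower (median -0.07). That gene was Serpinh1, the collagen chaperone Hsp47, at 162 ± 16.2 CPM in WT and 139.8 ± 9.93 CPM in Vps13c-cKO (SD, n = 6 per group; -0.21 ± 0.06 SE, adjusted p = 0.0207). The number of lower genes on this list was 0 without WT mouse 1 or Vps13c-cKO mouse 5, and it was 2 without Vps13c-cKO mouse 4 or 6 and in 6 of the 9 other fits on all mice.

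Genes that act on procollagen after secretion were higher where they changed. Of 12 tested genes of processing and cross-linking, 5 were higher and 0 lower (median log2 fold change 0.23). The shares over all tested genes were 5.65% higher and 5.1% lower. Pcolce2 and Pcolce, which speed removal of the C-propeptide, were at 0.42 ± 0.07 and 0.33 ± 0.07 (SE; adjusted p = 0.000355 and 0.00218). The N-propeptidase gene Adamts2 was at 0.30 ± 0.07 (adjusted p = 0.012), the C-propeptidase gene Bmp1 at 0.18 ± 0.05 (adjusted p = 0.0245) and the cross-linking gene Loxl1 at 0.35 ± 0.08 (adjusted p = 0.00541). Lox itself was at -0.12 ± 0.14 (adjusted p = 0.642). Of 11 tested genes for fibril-binding proteins, 6 were higher and 0 lower (median 0.17). The 6 were Bgn (0.38 ± 0.05), Aebp1 (0.42 ± 0.09), Postn (0.34 ± 0.08), Lum (0.33 ± 0.05), Tnxb (0.30 ± 0.05) and Prelp (0.17 ± 0.05). Thbs2 (-0.23 ± 0.08, adjusted p = 0.07) and Comp (-0.22 ± 0.28, adjusted p = 0.696) lay below 0. Without WT mouse 1 or 5, 1 gene of this list was lower. Lum and Dcn also count among the fibroblast markers below, and Postn, Fn1 and Comp among those of activated fibroblasts. These lists are therefore not separate sets of genes.

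Collagen receptors and the partners of type IV in the basement membrane were mostly not past the threshold. Of all tested genes, 10.7% passed it, 5.65% higher and 5.1% lower, so the counts below are near that share. Among 10 receptor and uptake genes, 1 was higher, the fibrillar collagen receptor gene Ddr2 (0.22 ± 0.06 SE, adjusted p = 0.0288), and 0 were lower. The call of Ddr2 was lost in 5 of 12 fits that leave out a mouse (WT mouse 2, 3 or 4, Vps13c-cKO mouse 1 or 3). The integrin genes Itga1 and Itgb1 were at 0.02 ± 0.05 and -0.07 ± 0.03 (adjusted p = 0.871 and 0.229). Among 13 basement membrane partners 0 were higher and 2 lower, the laminin genes Lama5 (-0.32 ± 0.05, adjusted p = 0.000456) and Lama2 (-0.16 ± 0.05, adjusted p = 0.0289). The lower count fell to 1 in 6 of 12 fits that leave out a mouse (WT mouse 1 or 6, Vps13c-cKO mouse 1, 2, 3 or 4). The higher count was 1 without WT mouse 1 or Vps13c-cKO mouse 2 and in 5 of the 9 other fits on all mice. Perlecan (Hspg2) was at 0.13 ± 0.04 (adjusted p = 0.0517).

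Markers of several cell types moved in the same libraries, and their part in the collagen differences was not tested. For comparison with each marker list, 5.65% of all tested genes were higher and 5.1% lower. Of the 14 fibroblast markers tested, 7 passed as higher and 0 as lower, and their median log2 fold change was 0.18. Their summed level was 1984 to 2339.7 CPM in WT and 2249.6 to 2527 CPM in Vps13c-cKO, and 0 of the 15 were at 0 counts. Pi16 (0.39 ± 0.07 SE, adjusted p = 0.00046), Mfap5 (0.45 ± 0.09, adjusted p = 0.00316) and Gpx3 (0.45 ± 0.05, adjusted p = 6.6e-06) were among those higher, with Lum, Dpt and Gsn. Of the markers that did not pass, Vtn was at -0.27 ± 0.10 (adjusted p = 0.0975), Fbln1 at -0.08 ± 0.06, Scara5 at -0.07 ± 0.07, Htra3 at -0.01 ± 0.06, Pdgfra at 0.04 ± 0.05, Dcn at 0.07 ± 0.04 and Tcf21 at 0.25 ± 0.13. Without Vps13c-cKO mouse 1, 1 fibroblast marker was lower. Among 10 markers of activated fibroblasts 4 passed as higher (Ccn2, Cilp, Ltbp2 and Postn) and 0 as lower. The median was 0.33, and the list's summed level was 154 to 194 CPM in WT and 189.8 to 263 CPM in Vps13c-cKO. Not past the threshold were Thbs4 (0.40 ± 0.21), Tnc (0.31 ± 0.24), Meox1 (0.29 ± 0.15), Fn1 (0.14 ± 0.07), Fap (-0.12 ± 0.13) and Comp (-0.22 ± 0.28). Among 10 macrophage markers 4 passed as higher (Lyz2, C1qa, C1qb and C1qc) and 0 as lower, and with robust empirical Bayes 2 were higher. The median was 0.26, and the list's summed level was 280.1 to 396 CPM in WT and 344 to 417 CPM in Vps13c-cKO. Macrophage markers that did not pass were Fcgr1 (0.63 ± 0.22), Adgre1 (0.26 ± 0.10), Cd68 (0.22 ± 0.10), Csf1r (0.12 ± 0.07), Mrc1 (0.08 ± 0.09) and Cd163 (-0.14 ± 0.15). Endothelial markers had 0 of 12 higher and 1 lower, Cldn5 (median -0.08; summed level 1135 to 1302 and 1126 to 1185 CPM). The lower count was 2 without WT mouse 3 and 3 without WT mouse 6, and without Vps13c-cKO mouse 2 the higher count was 1.

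Smooth muscle and pericyte markers had 1 of 10 higher (Myh11) and 2 lower (Pdgfrb and Rgs5; summed level 1652 to 1969 CPM in WT and 1590.2 to 1661 CPM in Vps13c-cKO), and cardiomyocyte markers had 1 of 9 higher (Mybpc3) and 3 lower (Tnnt2, Tnni3 and Myl2; 52387 to 58609 and 51268 to 55983 CPM). The call of Myh11 ended in 5 alternative fits, among them those without WT mouse 4, Vps13c-cKO mouse 4 or Vps13c-cKO mouse 6. The lower count of smooth muscle and pericyte markers ranged from 1 to 3 when a mouse was left out, and was 1 without WT mouse 2 or 3 or Vps13c-cKO mouse 4 or 6. Schwann cell markers had 0 of 5 tested genes past the threshold (summed level 15.1 to 22.4 and 14.2 to 21.8 CPM). Most markers of epicardium and of cartilage did not pass the count filter, with 1 tested gene on each list, summed levels of 3.22 to 5.48 CPM and of 2.45 to 4.58 CPM over the 12 mice, and Ucma at 0 counts. On the cartilage list 1 gene was higher without WT mouse 5 or Vps13c-cKO mouse 6, and on the epicardium list 1 was higher with no count filter and with DESeq2.

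**Figure D5:**
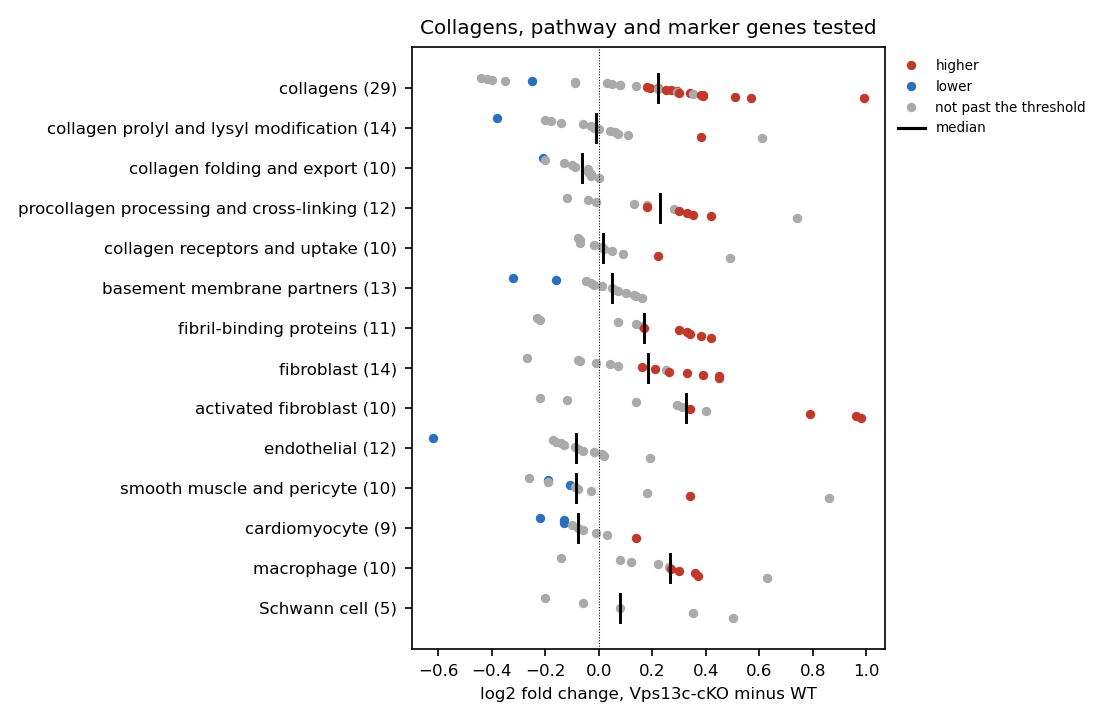
Log2 fold changes (Vps13c-cKO minus WT) of tested genes in each list of 5 or more, with the number tested in brackets; red points were higher, blue points lower, and the black bar is the median. Medians were 0.22 for the collagens, 0.23 for procollagen processing genes and 0.17 for fibril-binding proteins. They were 0.18 for fibroblast, 0.33 for activated fibroblast and 0.26 for macrophage markers, and -0.07 for folding and export genes.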

How the data were processed

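Libraries were made from poly-A RNA with random primers and PCR, per the labels' protocols, and no molecular identifiers are mentioned, so counts are reads. Whole, unnormalized read counts were deposited for every gene and mouse, per the file headers. For the reads, the submitters' processing notes list HISAT2 2.1.0, HTSeq 0.9.1, fastp 0.22.0 and GRCm39. Annotation release and strand setting are not stated there, so overlapping genes on opposite strands, such as Col9a3 with Tcfl5 or Col4a3 with C430014B12Rik, cannot be told apart. Symbols, found for 21851 of 21959 gene IDs, and lengths came from GENCODE M21 (GRCm38). Lengths are those of the main (APPRIS principal) transcript.

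edgeR 4.0.16 in R 4.3.3 gave two-sided quasi-likelihood F tests with TMM factors for the 12384 genes that passed filterByExpr, with Benjamini-Hochberg adjustment over all of them. Single values were compared with exact permutation tests. The labels number separate mice. Replicate numbers were not taken to pair mice, since same-numbered mice did not deviate together (correlation -0.04 to 0.06 over genes). Named are every collagen and, of each other list, genes past the threshold or among the 4 with the smallest p, except 1 fibroblast marker that is not reported here. P4ha1, P4ha2, Lox, Itga1, Thbs2, Myh6, Ucma and the uncalled fibroblast, activated fibroblast and macrophage markers fall outside that rule. They were added after their values were seen. The collagen members and all lists were chosen with earlier results of these data known. Alternatives covered scaling (size factors of DESeq2, upper quartiles, library sizes without mitochondrially encoded genes), filtering (none, or a mean of at least 5 CPM), the test (DESeq2 1.42.0, voom in limma 3.58.1, or robust empirical Bayes in edgeR), a block for the replicate number, and leaving out each mouse. The tests were tried on simulated data with the same spread between mice for every gene and no mouse in which many genes shift together. That trial cannot show how they behave with such mice.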

Additional observations from a re-analysis of the deposited data

Results flagged for a closer look

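Among 84 groups of 6 mice examined, 11 held a mouse far from the other 5 by Dixon's test, which chance flags in about 1 in 20 groups. WT mouse 1 was high for 3 type IV chains, with Col4a2 at 428 CPM against 324 to 358 CPM in the other WT mice, Col4a3 at 10 CPM against 5.22 to 6.97 CPM, and Col4a4 at 18.8 CPM against 13.9 to 15.7 CPM. The type IV share of the summed collagen level was 48.2% in that mouse and 43.0 to 44.8% in the other WT mice. Vps13c-cKO mouse 6 was low for Col8a1 (35.1 CPM against 48.4 to 54.7 CPM) and Col6a1 (89.7 CPM against 100 to 105 CPM). It was high for Col6a6 (14.0 CPM against 7.62 to 9.17 CPM) and Col22a1 (1.34 CPM against 0.367 to 0.64 CPM). Vps13c-cKO mouse 3 was high for Col3a1 (309.6 CPM against 239 to 263 CPM) and Col5a1 (66.1 CPM against 52.6 to 57.5 CPM). WT mouse 4 was high for Col25a1, at 1.44 CPM against 0.613 to 0.815 CPM.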

How the results depend on the processing

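Of 14 collagens higher, 12 to 15 were called when each mouse was left out, and 14 or 15 under every other alternative. With the replicate number as a block, 14 were higher and 1 lower, although the numbers did not pair the mice; the block also gave 1 lower fibroblast and 1 higher cartilage marker. The single lower collagen, Col5a3, is also the single lower gene of the fibrillar class. Requiring a mean of at least 5 CPM left 0 lower collagens, and leaving out single mice left 0 to 1. FACITs higher numbered 1 to 2 without each mouse. Uncalled genes crossed 0 when a mouse was left out: Col20a1 (-0.07 to 0.21), Col27a1 (-0.24 to 0.03) and Col6a6 (-0.24 to 0.00); so did the log2 difference of the ratio of Col4a1 to Col4a2 (-0.01 to 0.03). The length alternative was chosen after the data were seen. It moved the class shares themselves, with type IV in WT at 52.0% in place of 44.6%. The differences in share between WT and Vps13c-cKO stayed within 1 SD of those first given. Collagens with few counts, such as Col7a1 and those below the filter, are limited by depth.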
